A study of Rattus norvegicus with 7 samples.

Results

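The genes described here encode the enzymes that lengthen fatty acids in the endoplasmic reticulum: the elongases Elovl1, Elovl3, Elovl4, Elovl5 and Elovl7, the reductase Hsd17b12, the dehydratase Hacd3 and the reductase Tecr. They were taken by gene symbol, as genes of 1 pathway. All 8 were found in both deposited tables, which held 17246 genes each, and all 8 passed the filter on low counts with 13709 genes in total. RNA was sequenced from the meibomian gland, the oil gland of the eyelid, of wild-type female Sprague-Dawley rats aged 3 months. The comparison asked how gene expression in the gland differs after ultraviolet B (UVB) light. There were 4 control libraries, labelled as having had no treatment, and 3 UVB libraries. For the latter, the upper lids were shaved and given 300 mJ/cm2 of UVB in 5 min per day for 5 days before the glands were dissected and frozen. The labels give 1 protocol text for every sample, so whether controls were shaved is not stated, nor is how long after the last dose the glands were taken. Letters name the libraries (a to d among the controls, a to c after UVB) and pair nothing. The labels number the samples but do not say that each came from a separate animal, so the p-values measure the spread between these samples.

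Fatty acids made by fatty acid synthase are lengthened by a cycle of 4 reactions that adds a pair of carbons from malonyl-CoA at each turn. An ELOVL enzyme joins the carbons and sets the rate and the choice of chain. HSD17B12 reduces the product, a HACD enzyme removes water, and TECR carries out the last reduction. The lipid that meibomian glands secrete, meibum, is known for wax and cholesteryl esters with very long chains, and loss of ELOVL3 or ELOVL4 in mice is known to alter meibum. The text compares levels between genes only in TPM (a unit corrected for transcript length and library size). Differences between groups are log2 fold changes of UVB against control from edgeR's quasi-likelihood test, with p-values adjusted by Benjamini-Hochberg over all 13709 genes and a threshold of 0.05.

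After UVB, Elovl5 rose and Hacd3 fell, and none of the other 6 genes passed the threshold. The log2 fold change of Elovl5 was 0.72 (SE 0.13, edgeR adjusted p = 0.0105) and that of Hacd3 was -0.45 (SE 0.080, edgeR adjusted p = 0.0101). Elovl3 fell just outside the threshold at 0.54 (SE 0.15, edgeR adjusted p = 0.0506). In direction, 6 of the 8 values were above 0 and those of Elovl4 and Hacd3 were below it, with a median of 0.32 beside -0.0058 for all tested genes. The 2 called members stand beside 13.0% of all tested genes called in either direction, 6.30% higher and 6.74% lower. With the TMM-normalised counts scaled to library size (CPM) that the test uses, the groups did not overlap for these same 2 members, where 26.6% of all genes had groups that did not overlap, 12.8% with UVB higher and 13.8% with UVB lower.

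**Figure D1:**
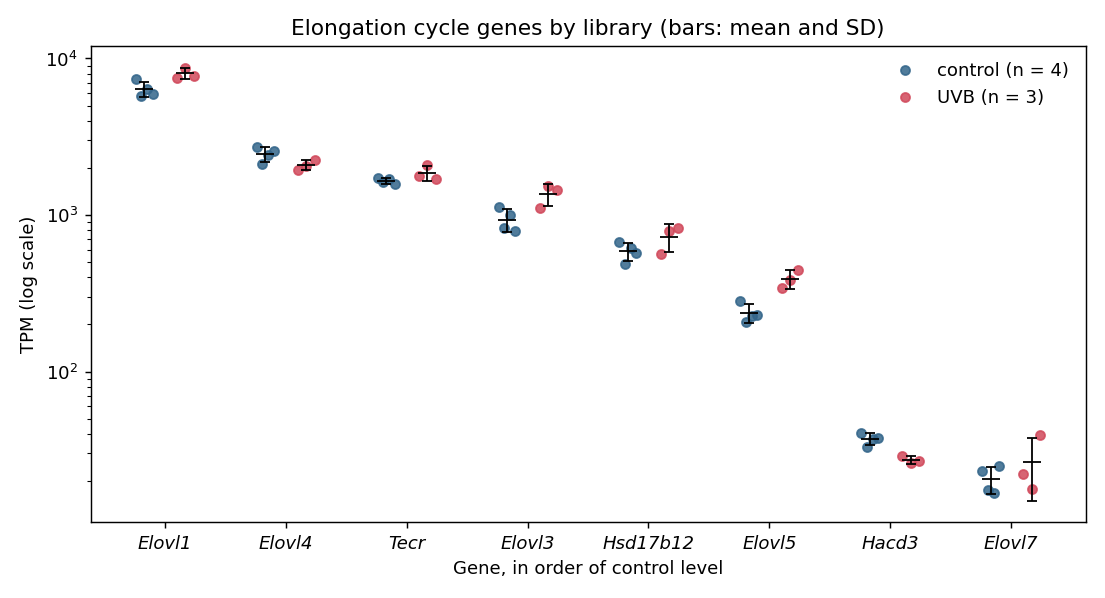
TPM (log axis) of the 8 elongation cycle genes in each of 4 control and 3 UVB libraries, with mean and SD as bars. Elovl1 lies highest and Elovl7 lowest among the controls, and the UVB points lie wholly above the controls for Elovl1 and Elovl5 and wholly below for Hacd3. In TMM CPM, where the groups of 26.6% of all tested genes did not overlap, those of Elovl1 overlapped.

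Elovl3, which was not called, followed Elovl5 across libraries (Pearson's r of log2 CPM 0.91), as did Elovl1 (0.90). The difference between groups is part of both values. Promoter windows of the 2 called genes and of Elovl3 are shown so that the sequence upstream can be read beside their values. Each is the 250 bases before the annotated start from RefSeq, build GRCr8, 5′ to 3′ on the gene's strand; the submitters' processing notes name another build, rn7. Windows were found for all 8 genes, 3 of them for Tecr. Capitals mark matches on either strand to any of 9 motifs. The E-box was searched as CACGTG and the sterol regulatory element as TCACNCCAC. Direct repeats, which nuclear receptors read, were searched as copies of AGGTCA with 1 or with 4 bases between them. The CCAAT box was searched by the letters of its name, the GC box as GGGCGG and the AP-1 site as TGANTCA. The cyclic AMP response element was searched as TGACGTCA and the TATA box as TATAAA. No matches overlap in these windows. The windows lie at chr8:87670914-87671163 on the plus strand for Elovl5, chr8:74433701-74433950 on the minus strand for Hacd3 and chr1:254938481-254938730 on the plus strand for Elovl3.
Elovl5: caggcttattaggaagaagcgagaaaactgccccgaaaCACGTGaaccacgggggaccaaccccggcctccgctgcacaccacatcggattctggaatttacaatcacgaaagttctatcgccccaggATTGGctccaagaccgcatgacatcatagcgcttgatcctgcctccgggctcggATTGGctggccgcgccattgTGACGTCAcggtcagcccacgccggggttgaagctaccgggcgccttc
Hacd3: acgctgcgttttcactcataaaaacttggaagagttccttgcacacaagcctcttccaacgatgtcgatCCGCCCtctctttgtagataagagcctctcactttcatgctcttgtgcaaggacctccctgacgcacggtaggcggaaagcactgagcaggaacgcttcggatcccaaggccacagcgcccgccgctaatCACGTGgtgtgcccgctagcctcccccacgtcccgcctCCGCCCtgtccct
Elovl3: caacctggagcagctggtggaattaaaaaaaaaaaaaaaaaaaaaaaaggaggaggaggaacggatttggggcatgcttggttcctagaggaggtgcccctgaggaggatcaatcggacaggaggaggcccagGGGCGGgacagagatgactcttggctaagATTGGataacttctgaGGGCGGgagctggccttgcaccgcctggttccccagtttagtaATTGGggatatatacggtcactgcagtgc

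CACGTG was found in the windows of Elovl5 and Hacd3, the member that rose and the member that fell, and in those of 2 of the 8 genes in all. It occurs in 5.59% of 33469 RefSeq windows of the same length. TGACGTCA was found for Elovl5 alone among the 8, against 1.59% of all windows. CCAAT occurred for 5 of the 8 genes, against 34.0% of all windows, and GGGCGG for 5 of 8, against 30.5%. Matches to the sterol regulatory element (0.974% of all windows), to AP-1 (6.34%) and to the direct repeats (0.0508% and 0.00299%) were found for 0 of 8. TATAAA occurred for Elovl7 and, in window 3 alone of its 3, for Tecr, against 12.9% of all windows. A gene counted as matched if any of its windows matched, while the percentages are of single windows. For Tecr, with 3 windows, the 2 measures are therefore not alike. The window of Elovl1 held none of the 9. These are letter matches, and no binding was measured.

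Among the elongases, which carry out the first reaction, Elovl1 was by far the most abundant. It encodes an enzyme of broad expression that lengthens saturated and monounsaturated very long chains, and was the fourth most abundant gene of the table by mean TPM. Its TPM was 7363, 5730, 6418 and 5947 in the controls and 7559, 8747 and 7759 after UVB, both in the order of their letters, as for every gene that follows. All 3 UVB libraries lay above every control in TPM, although UVB a was only just above control a. In TMM CPM the order of those 2 libraries turned, with 5635 in control a and 5548 in UVB a. The log2 fold change was 0.33 (95% interval 0.068 to 0.59, edgeR adjusted p = 0.0939), so Elovl1 was not called.

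Elovl4 encodes the enzyme known for the longest chains, and it ranked second among the 8 genes. The TPM values were 2701, 2102, 2413 and 2568 in the controls and 1946, 2056 and 2245 after UVB. UVB a and UVB b lay below every control, and UVB c lay above control b, the lowest of the controls. The log2 fold change was -0.24 (95% interval -0.48 to 0.0022), with an edgeR adjusted p of 0.172.

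Elovl3 encodes an enzyme of saturated and monounsaturated chains known in sebaceous glands and brown fat. Its TPM was 1129, 829, 994 and 786 in the controls and 1115, 1532 and 1442 after UVB. The groups overlapped through 1 pair of libraries, since UVB a was slightly below control a while UVB b and UVB c were above every control. The 95% interval of its log2 fold change ran from 0.19 to 0.89. The call turned on those libraries: the adjusted p was 0.0220 without control a (log2 fold change 0.66) and 0.0277 without UVB a (0.68), and 0.154 without UVB b (0.44). Elovl3 shares its locus with Pitx3 in GRCr8, and whether the authors counted by strand is not given in the sources used here. Pitx3 stood at 19.8 ± 7.23 CPM (SD, n = 4) among controls against 23.4 ± 7.22 CPM (SD, n = 3) with UVB, a small level beside the 1011 ± 172 CPM (SD, n = 4) of Elovl3 in controls.

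Elovl5 encodes an enzyme of polyunsaturated chains and was the only elongase of the 5 that passed the threshold. Its TPM was 283, 206, 225 and 230 in the 4 controls and 341, 383 and 447 in the 3 UVB libraries. Every UVB library was above every control, with the narrowest gap between control a and UVB a. In means, 236 ± 33.2 TPM (SD, n = 4) became 390 ± 53.3 TPM (SD, n = 3), and the 95% interval of the log2 fold change was 0.43 to 1.01. Elovl5 was also called in each of the 7 fits that left out 1 library, at log2 fold changes of 0.61 to 0.83 and edgeR adjusted p-values of 0.00448 to 0.0357.

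Elovl7, which encodes an enzyme of saturated chains, was scarce in the gland. Its TPM was 23.2, 17.6, 16.8 and 24.8 in the controls and 22.0, 17.8 and 39.2 after UVB. UVB c was the highest of all 7 libraries and the other 2 UVB libraries lay within the range of the controls. Its log2 fold change of 0.35 (95% interval -0.29 to 0.98, edgeR adjusted p = 0.442) became -0.058 without UVB c. Elovl2, a further elongase of polyunsaturated chains outside the 8 genes, was lower still at 5.04 ± 1.05 TPM (SD, n = 4) among controls against 3.83 ± 1.47 TPM (SD, n = 3) with UVB. Elovl6, which lengthens palmitate, was looked for by its symbol without a match among the genes read, so its level is not known here.

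**Figure D2:**
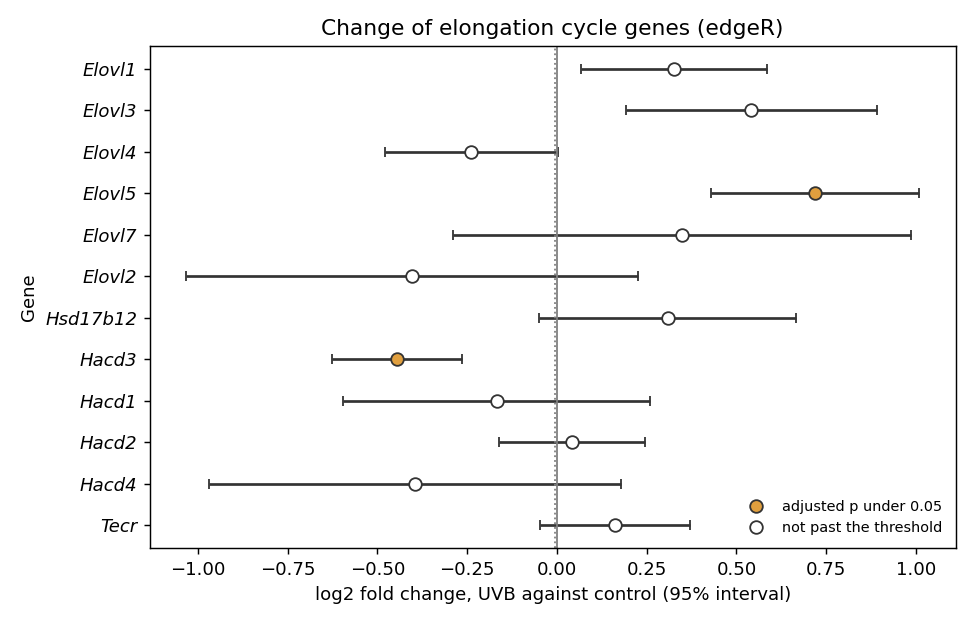
Log2 fold change of UVB against control with its 95% interval for the 8 genes and for Elovl2, Hacd1, Hacd2 and Hacd4, from edgeR. Elovl5 (0.72) and Hacd3 (-0.45) are the filled points, past an adjusted p of 0.05; the dotted line is the median of all tested genes, next to 0.

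The share of each elongase in their summed transcripts is given next as a description, with no test. Of the summed TPM of the 5 elongases, Elovl4 held 24.5% ± 1.60 (SD, n = 4) among controls against 17.6% ± 1.34 (SD, n = 3) with UVB. By library its share was 23.5%, 23.7%, 24.0% and 26.9% in the 4 controls and 17.7%, 16.1% and 18.8% in the 3 UVB libraries, with a clear gap between the groups. Elovl1 held 63.6% ± 0.977 (SD, n = 4) in controls and 67.5% ± 2.15 (SD, n = 3) in UVB libraries, with the closest libraries at 64.5% and 65.0%. The share of Elovl3 went from 9.31% ± 0.766 (SD, n = 4) to 11.4% ± 1.10 (SD, n = 3), and that of Elovl5 from 2.36% ± 0.102 (SD, n = 4) to 3.28% ± 0.401 (SD, n = 3). Groups did not overlap for any of these 4 shares, which are bound to each other since they sum to a whole. The share of Elovl7 stayed under 1% in every library. The summed TPM itself ran from 8884 to 11500 in the controls and from 10983 to 12736 after UVB, with overlap.

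Ratios between members, which do not depend on library scaling, were compared by exact permutation of the group labels, two-sided, with 35 arrangements. The 11 ratios, all pairs of the 5 elongases and Hacd2 to Hacd3, were chosen after the values were seen. In mean log2 ratio, Elovl4 to Elovl5 moved most, from 3.38 ± 0.0985 (SD, n = 4) to 2.42 ± 0.0918 (SD, n = 3), a difference of -0.95. The log2 ratio of Elovl3 to Elovl4 moved by 0.78 and that of Elovl1 to Elovl4 by 0.57. The log2 ratio of Elovl1 to Elovl5 moved by -0.39. In each of these 4, every UVB library lay beyond every control, and the exact permutation p was 0.0286, the smallest that the design allows. Adjusted over the 11 ratios it was 0.0629, short of the threshold. To pass, more of the 11 ratios would have had to reach that smallest p. The adjusted p therefore does not measure how far these ratios moved. The log2 ratio of Elovl1 to Elovl3 differed by -0.21 with overlapping groups (exact permutation p = 0.114, adjusted 0.180). That of Elovl3 to Elovl5 differed by -0.18 (exact permutation p = 0.171, adjusted 0.236).

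**Figure D3:**
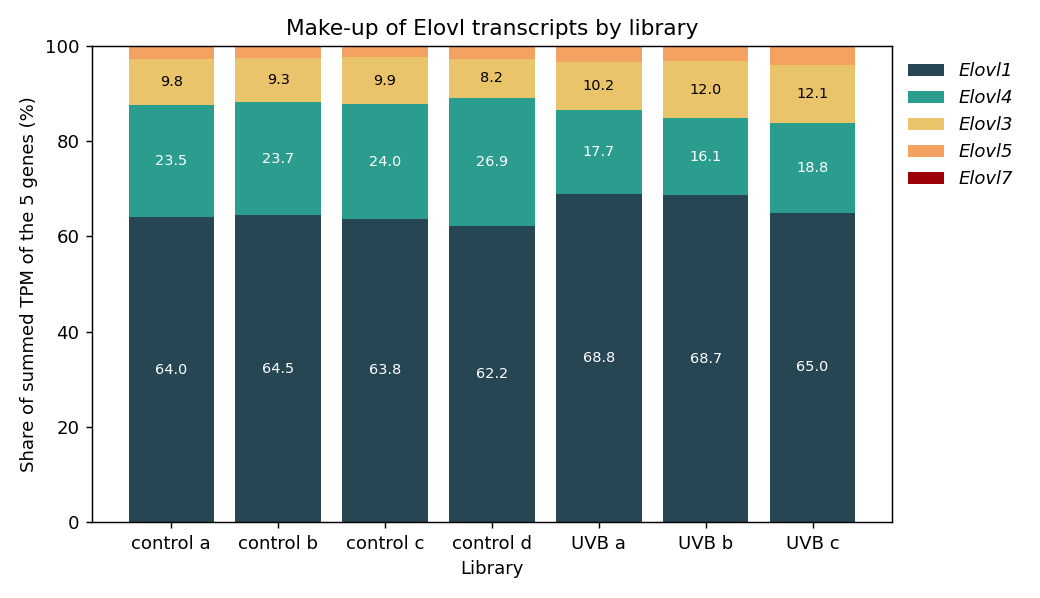
Share (%) of each elongase in the summed TPM of Elovl1, Elovl3, Elovl4, Elovl5 and Elovl7, 1 bar per library, starting at 0. The band of Elovl4 spans 23.5% to 26.9% in the controls and 16.1% to 18.8% after UVB; Elovl7, under 1%, is too thin to see.

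Hsd17b12 encodes the reductase of the second reaction and is the one gene known for that step. The TPM values were 674, 483, 618 and 570 in the controls and 563, 793 and 825 after UVB. UVB b and UVB c were above every control, but UVB a was below 3 of the 4. Its log2 fold change was 0.31 (95% interval -0.049 to 0.67, edgeR adjusted p = 0.228). Without UVB a it was 0.47 with an edgeR adjusted p of 0.0499, barely under the threshold. In the other fits without 1 library the edgeR adjusted p ran from 0.1475 to 0.4775.

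The dehydratases of the third reaction are encoded by 4 genes, of which Hacd3 fell. Its TPM was 40.7, 32.9, 36.9 and 37.6 in the 4 controls and 29.0, 26.0 and 27.0 in the 3 UVB libraries, so that the groups did not overlap. In means, 37.0 ± 3.23 TPM (SD, n = 4) became 27.3 ± 1.58 TPM (SD, n = 3), and the 95% interval of the log2 fold change was -0.63 to -0.27. Hacd3 was called in all 7 fits without 1 library, at -0.50 to -0.39 and edgeR adjusted p-values of 0.0106 to 0.0342. In GRCr8 its locus overlaps Ints14, a subunit gene of the integrator complex, for which strand again matters. Ints14 had a log2 fold change of -0.040 (edgeR adjusted p = 0.70), at 39.0 ± 1.29 CPM (SD, n = 4) among controls against 37.9 ± 0.932 CPM (SD, n = 3) with UVB.

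Hacd2 supplied most dehydratase transcripts. It measured 477 ± 10.1 TPM (SD, n = 4) among controls against 492 ± 62.7 TPM (SD, n = 3) with UVB (log2 fold change 0.041, 95% interval -0.16 to 0.25, edgeR adjusted p = 0.802). Hacd3 made up 7.01% ± 0.502 (SD, n = 4) of the summed TPM of the 4 Hacd genes among controls against 5.19% ± 0.717 (SD, n = 3) with UVB. The sum of the 4 genes was 527 ± 13.1 TPM (SD, n = 4) and 532 ± 59.8 TPM (SD, n = 3), with overlapping groups. The log2 ratio of Hacd2 to Hacd3 was higher by 0.47 after UVB, without overlap (exact permutation p = 0.0286, adjusted 0.0629). Hacd1, known from muscle, was at 11.6 ± 1.82 TPM (SD, n = 4) in the controls and Hacd4 at 1.87 ± 0.248 TPM (SD, n = 4).

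Tecr encodes the reductase of the last reaction and was the third most abundant of the 8 genes. Its TPM was 1715, 1614, 1695 and 1572 in the controls and 1770, 2093 and 1695 after UVB. UVB a and UVB b were above every control, while UVB c was level with control c. The log2 fold change was 0.16 (95% interval -0.046 to 0.37, edgeR adjusted p = 0.275), and 0.054 without UVB b. Tecrl, a relative of Tecr known from heart, had at most 3 counts in any library and was not tested.

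In the controls the order by mean TPM was Elovl1, Elovl4, Tecr, Elovl3, Hsd17b12, Elovl5, Hacd3 and Elovl7, and the ranges of neighbours in that order did not overlap. The same order held after UVB, but there Elovl4 and Tecr overlapped, at 2082 ± 152 and 1853 ± 211 TPM (SD, n = 3), and so did Hacd3 and Elovl7, at 27.3 ± 1.58 and 26.3 ± 11.3 TPM (SD, n = 3). By step of the cycle, the elongases with Elovl2 included, but without Elovl6, summed to 10010 ± 1109 TPM (SD, n = 4) in the controls. The other steps were lower, at 1649 ± 67.6 TPM (SD, n = 4) for Tecr, 586 ± 80.8 TPM (SD, n = 4) for Hsd17b12 and 527 ± 13.1 TPM (SD, n = 4) for the dehydratases. Every count of the 8 genes was a whole number in all 7 libraries, from 275 to 735 counts for Elovl7 and from 92239 to 172673 for Elovl1, so the counts show no sign of reads divided between these and other genes.

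Across the 7 libraries, 11 of the 28 pairs of members had a negative correlation and the others a positive one. Pearson's r of log2 CPM was 0.955 between Elovl1 and Elovl3, 0.91 between Elovl3 and Elovl5 and 0.89 between Elovl3 and Hsd17b12. It was 0.82 between Elovl4 and Hacd3, and -0.22 between Elovl1 and Elovl4. Hacd3 was negative with 6 of the 7 other members, at -0.74 with Elovl5, -0.67 with Elovl3, -0.59 with Elovl1 and -0.54 with Tecr. These are descriptions, since all points share the same 7 libraries and the difference between groups is part of each r. Control a had the highest control TPM for 7 of the 8 genes, Elovl7 being the exception, and UVB a had the lowest UVB value for Elovl1, Elovl3, Elovl4, Elovl5 and Hsd17b12.

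Among 7847 genes with a mean of at least 10 TPM, the gene most like each member across the 7 libraries was named by its Pearson's r of log2 CPM. It was Mvd, an enzyme gene of cholesterol synthesis, for Elovl1 (r = 0.995) and Furin, a protease gene, for Elovl3 (r = 0.993). For Elovl4 it was Sp6, a transcription factor gene (r = 0.995), and for Elovl5 it was Alkbh2, a DNA repair gene (r = 0.996). Tpra1 was most like Hacd3 (r = 0.982), Spns1 most like Tecr (r = 0.990), Irak1 most like Hsd17b12 (r = 0.980) and Ube2j1 most like Elovl7 (r = 0.973). Of these 8 genes, Mvd (log2 fold change 0.36, edgeR adjusted p = 0.0487) and Tpra1 (-0.33, 0.0115) passed the threshold for UVB against control. Each r is the highest of 7847 over only 7 points.

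Genes around the cycle were read from 7 lists, grouped by function and chosen with earlier results of these data known. Of all tested genes, edgeR called 6.30% higher and 6.74% lower, and the counts in each list stand beside those shares. On the list for malonyl-CoA supply and fatty acid synthesis, 1 of 10 genes rose and 0 fell. Of their values, 9 of 10 were above 0, beside 49.1% of all tested genes (median 0.21, beside -0.0058 for all tested genes, and 0.12 without UVB b). The value below 0 was that of Acaca, an acetyl-CoA carboxylase gene (log2 fold change -0.018, edgeR adjusted p = 0.897). The list also took in Mlycd, the malonyl-CoA decarboxylase gene (0.19, 0.282), which does not supply malonyl-CoA. Acly, which makes cytosolic acetyl-CoA, rose from 300 ± 29.2 TPM (SD, n = 4) to 394 ± 18.5 TPM (SD, n = 3), a log2 fold change of 0.38 (edgeR adjusted p = 0.0258); the call was lost without control b, c or d, UVB b or UVB c, at adjusted p-values up to 0.0721. Fasn, the fatty acid synthase gene, measured 0.32 (0.106) and Acss2, an acetyl-CoA synthetase gene, 0.23 (0.139) in log2 fold change with edgeR adjusted p. Of the 4 other elongation cycle genes tested, Elovl2, Hacd1, Hacd2 and Hacd4, none rose or fell in edgeR, none had an unadjusted p under 0.05, and none was called by DESeq2 or limma-voom.

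Desaturases put the double bonds into the chains that elongases lengthen. Of 9, 0 rose and 1 fell (median 0.044), beside 6.30% and 6.74% of all tested genes. Scd4, a stearoyl-CoA desaturase gene, fell from 1618, 1287, 1726 and 1626 TPM in the controls to 912, 589 and 524 TPM after UVB, a log2 fold change of -1.22 (edgeR adjusted p = 0.00776), but its counts were not whole in any library, so its reads were shared out between genes and its level is not certain. Degs2, a sphingolipid desaturase and hydroxylase gene, measured 0.72 (edgeR adjusted p = 0.106), and Fads2, whose enzyme acts next to ELOVL5 on polyunsaturated chains, measured 0.54 (0.191) at only 9.21 ± 1.04 TPM (SD, n = 4) in the controls.

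Acyl-CoA synthetases activate fatty acids before elongation, and binding proteins carry the products. Of 16 tested genes, 3 rose and 2 fell (median -0.055), beside 6.30% and 6.74% of all tested genes. Slc27a4, known for activating very long chains in skin, rose from 113 ± 3.63 TPM (SD, n = 4) to 165 ± 11.5 TPM (SD, n = 3), a log2 fold change of 0.54 (edgeR adjusted p = 0.00348). Acsl5, a long chain synthetase gene, rose by 0.41 (edgeR adjusted p = 0.00786), with no whole count in any library, and Acbd6, a gene of an acyl-CoA binding protein, rose by 0.40 (0.0107). The 2 that fell, named here after their values were seen, were Dbi, the gene of the main acyl-CoA binding protein, and Slc27a1, a fatty acid transport gene. Dbi fell from 3839 ± 538 TPM (SD, n = 4) to 2038 ± 554 TPM (SD, n = 3), a log2 fold change of -0.90 (edgeR adjusted p = 0.0146), and Slc27a1 by 0.28 on the log2 scale (0.0214). The call of Dbi was lost without UVB b (edgeR adjusted p = 0.0559), and that of Slc27a1 without control c or d, UVB a or UVB c (up to 0.0629).

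Of 15 genes on the list of users of very long chains, which also took in other acyltransferases and ceramide synthases, 1 rose and 3 fell (median -0.13). That median was 0.021 without control a and between -0.17 and -0.040 in the other fits without 1 library. Of all tested genes, 6.30% rose and 6.74% fell, the shares beside this count and those of the lists that follow. Awat2, the main wax synthase gene of the gland, went from 11610 ± 597 TPM (SD, n = 4) to 7380 ± 394 TPM (SD, n = 3), a log2 fold change of -0.66 (edgeR adjusted p = 0.00453). Its mean was above that of Elovl1 in the controls and below it after UVB, although in UVB a Awat2 was still the higher, at 7744 against 7559 TPM. Dgat1, an acyltransferase gene of triglyceride synthesis, rose by 0.60 (edgeR adjusted p = 0.00333), and Cers6, known for ceramides of shorter chains, fell by 0.37 (0.0287) on the log2 scale, a call lost without control b, c or d, UVB b or UVB c (up to 0.0866). The other fall, named after its value was seen, was that of Awat1 (-0.33, edgeR adjusted p = 0.0404), a call lost in every fit without 1 library except the fit without control b (adjusted p up to 0.115). Of 11 genes that break down very long chains in peroxisomes, edgeR called 0 in either direction, as did DESeq2 and limma-voom, and none had an unadjusted p under 0.05 except Abcd2, at under 1 TPM. Of 13 regulators, Ppard alone rose (0.30, edgeR adjusted p = 0.0355), a call lost in every fit without 1 library except the fit without control a (adjusted p up to 0.108). Insig1 (-0.30, 0.106) and Nr1h3, the LXR alpha gene (-0.19, 0.110), did not pass.

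**Figure D4:**
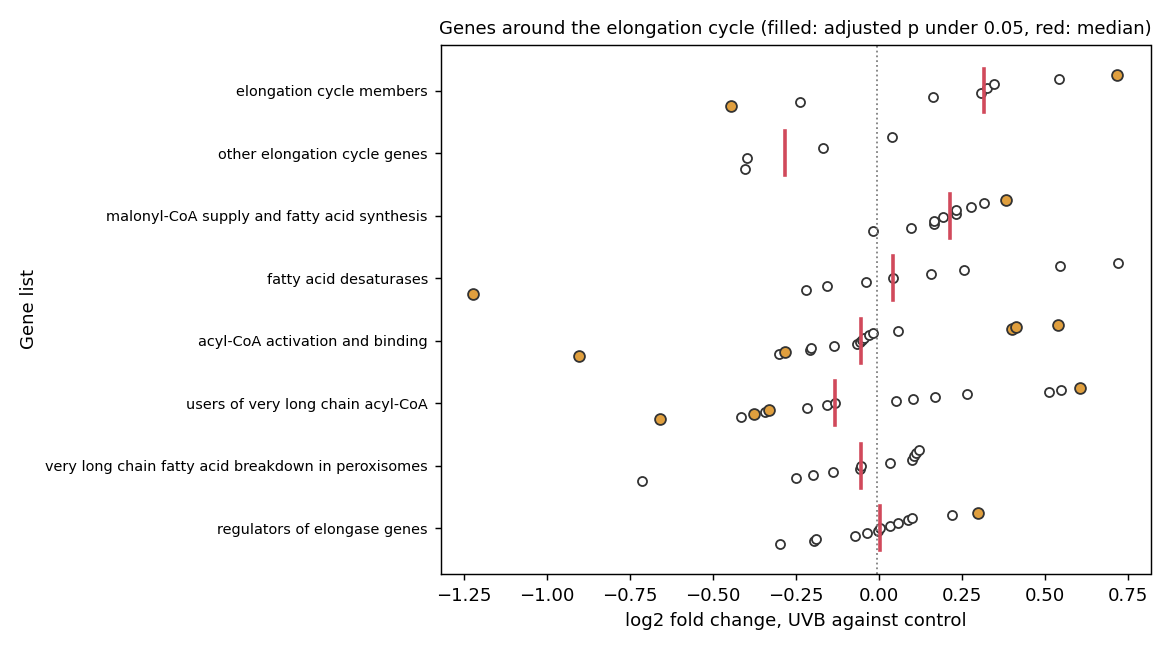
Log2 fold change of UVB against control for each tested gene of the 8 members and of 7 lists around the cycle, with list medians in red and the median of all genes as a dotted line. Filled points passed an adjusted p of 0.05; among the synthetases and binding proteins they lie on both sides of 0.

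The sampled tissue carried the markers of the gland. All 10 listed sebocyte and meibocyte markers, Elovl3 among them, were detected, with a summed level of 42430 to 51340 TPM in the controls and 38910 to 45760 TPM after UVB. Most of that sum was Scd and Awat2, with control means of 27690 and 11610 TPM. The counts of Scd were not whole in any library, so its level, like that of Scd4, is not certain. Of the 10 markers, 0 rose and 3 fell (Awat2, Plin2 and Awat1), with a list median log2 fold change of 0.032. Beside this and every marker count below stand the 6.30% of all tested genes called higher and the 6.74% called lower. Epidermal markers (8 of 10 in the tables) summed to 10510 to 13130 TPM in the controls and 12940 to 15230 TPM after UVB, hair follicle markers (8 of 8) to 668 to 1052 and 287 to 811 TPM, and muscle markers (6 of 8) to 2148 to 3001 and 1425 to 2596 TPM, with overlap in each. Among the epidermal markers Krt14 was called higher (log2 fold change 0.47) and Krt77 lower (-5.89). The largest of them in the controls were Krt14 and Krt5, with means of 5279 and 3564 TPM and no whole count in any library. In the hair follicle list Krt35 was called lower (-0.95, list median -0.93), and in the muscle list Actn3 (-1.77). Fibroblast markers (5 of 6) ran from 896 to 1402 TPM and, after UVB, from 1176 to 1900 TPM, with 3 called higher. Endothelial markers (4 of 5) ran from 29.2 to 36.1 and from 40.9 to 49.2 TPM, with 3 called higher and no overlap. Schwann cell markers (4 of 4) ran from 93.1 to 106 and from 68.7 to 76.1 TPM, with 1 called lower and no overlap. Immune markers (8 of 8, 1 called higher), adipocyte markers (5 of 5, 1 called lower) and goblet cell markers (3 of 4, 0 called) summed to at most 802.5, 112 and 13.3 TPM in any library. The goblet cell sums did not overlap, at 1.32 to 2.95 TPM in the controls and 3.52 to 13.3 TPM after UVB. No marker in the tables was at 3 counts or fewer in every library. The part of these cell types in the changes of Elovl5 and Hacd3 was not tested, and in whole tissue fewer cells of a type and less RNA per cell cannot be told apart.

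**Figure D5:**
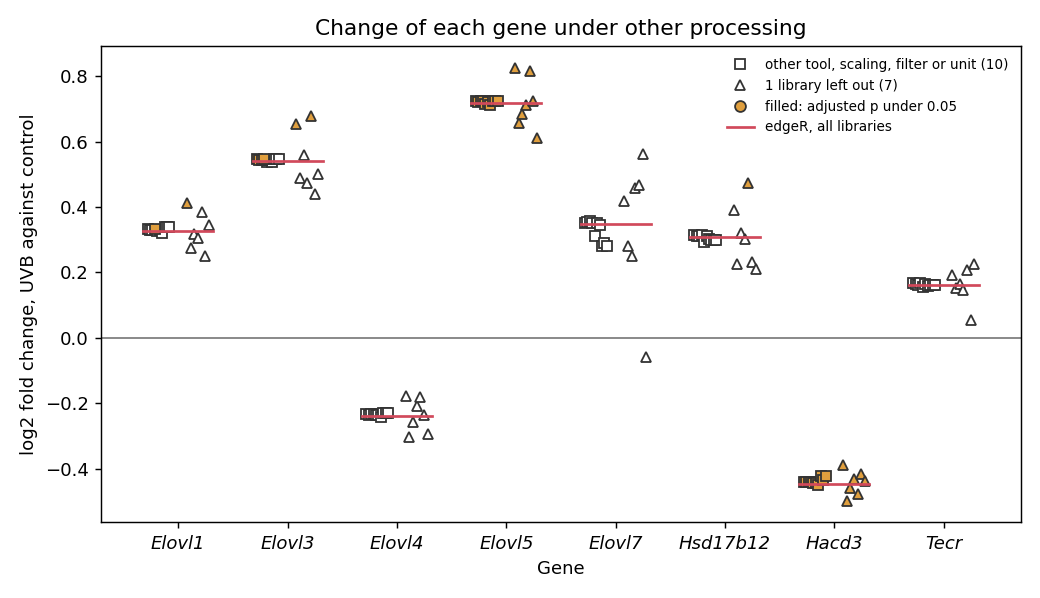
Log2 fold change of each of the 8 genes under 10 other tools, scalings, filters or units (squares) and with 1 of the 7 libraries left out (triangles), beside the value from all libraries (red line). Elovl5 and Hacd3 are filled, past an adjusted p of 0.05, at every point; Elovl7 crosses 0 without UVB c.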

How the data were processed

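RNA-seq of 4 control and 3 UVB libraries was analysed from 2 deposited tables. The authors deposited expected counts (estimated counts per gene, 12.5% of them not whole) and TPM values, which per library summed to 82.0% to 84.1% of the total that TPM is scaled to. The submitters' processing notes name FastQC, Trimmomatic, DRAGEN and Picard and build rn7, without roles or versions; the handling of strand is not given in the sources used here. Values were read from the right end of each row, because gene names hold unquoted commas, and 5 rows per table without 7 values were left out. Library totals ran from 20680237 to 28784941 counts.

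Counts were rounded and tested in edgeR 4.0.16 (R 4.3.3; filterByExpr, TMM, robust quasi-likelihood, no covariates). Intervals are 95% from the test's t distribution with its SE, the absolute log2 fold change over the square root of F. Alternatives used DESeq2 1.42.0, limma 3.58.1 (voom, or log2 of TPM plus 1 or 0.1), other scalings and filters, and each library left out. On simulated counts of 13611 genes with 200 changed by 2-fold, edgeR found 92.0% of the changed genes with a false share of 4.66% among its calls, and for DESeq2 these were 97.5% and 14.1%. The changed genes all had a mean count of at least 50. No member changed by as much as 2-fold, so recovery of changes of their size was not tested. The simulation changed a smaller share of genes than the 13.0% called in these data, so its false shares need not carry over. Members and lists were chosen with earlier results of these data known. Named genes were the 8 members, the 3 genes of smallest p in each list and the 1 gene most like each member.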

Additional observations from a re-analysis of the deposited data

Results flagged for a closer look

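Gaps between libraries were examined for 61 values in the 4 controls, a gap being the distance of the highest or lowest library to its neighbour as a part of the whole range. A gap above Dixon's critical value for 4 samples was found for 5 values; chance gives this in about 1 of 20, or 3.05 here. The 3 UVB libraries were not examined for gaps. In control d, Elovl4 held 26.9% of the summed elongase TPM against 23.5% to 24.0% in the others (gap 0.856), and the log2 ratio of Elovl1 to Elovl4 was apart in the same library (gap 0.847). Elovl2 had a gap of 0.875 in TMM CPM. Scd4 was low in control b, at 729 CPM against 927 to 957 CPM (gap 0.871). Pex7, a peroxisomal import gene, was high in control a, at 20.5 CPM against 18.5 to 18.7 CPM (gap 0.879).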

How the results depend on the processing

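No paired analysis was possible because the numbers in the column names are not those of the sample titles, and nothing in the labels pairs a control with a UVB sample. Elovl5 and Hacd3 kept their direction and their call in all 17 alternatives. Elovl3 passed with DESeq2 size factors (0.55, edgeR adjusted p = 0.0479), upper quartile factors (0.55, 0.0417), library size alone (0.54, 0.0396) and DESeq2 (0.55, 0.00403). Elovl1 passed in DESeq2 (0.33, adjusted p = 0.0189). The members called higher were therefore 2 under those 3 scalings and 3 in DESeq2, which called 4 members in all. Of all tested genes, DESeq2 called 17.88%, and the 3 scalings called 13.06%, 12.74% and 11.92% in the order given. The cause was not tested. Over the 7 fits without 1 library, 2 to 4 members were called, 1 to 3 of them higher. The share of all tested genes called ran from 6.27% (without control c) to 13.85% (without control a). Log2 fold changes there ran from 0.25 to 0.41 for Elovl1 (called without control a, adjusted p = 0.0279), 0.44 to 0.68 for Elovl3, -0.30 to -0.18 for Elovl4, -0.058 to 0.56 for Elovl7 and 0.21 to 0.47 for Hsd17b12. In the same fits the difference in share of summed elongase TPM, in percentage points, ran from 3.23 to 5.13 for Elovl1, 0.698 to 1.07 for Elovl5 and -0.0365 to 0.0579 for Elovl7. The difference in log2 ratio ran from -0.26 to 0.40 for Elovl1 to Elovl7 and from -0.077 to 0.54 for Elovl3 to Elovl7, so neither has a settled sign. Genes called in those fits ran from 851 (without control c) to 1898, 421 to 927 higher and 430 to 971 lower, against 1787, 863 and 924 with all libraries. DESeq2 with all libraries called more, at 2451 genes, 1218 higher and 1233 lower. Without a filter on log2(TPM + 1), 571 genes were lower. In the lists, over the fits without 1 library, genes called higher ran from 0 to 3 for malonyl-CoA supply and fatty acid synthesis. Genes called lower ran from 1 to 3 among users of very long chains and from 1 to 2 among acyl-CoA activation and binding genes. With all libraries, 4 users were called lower by DESeq2, by limma-voom and by edgeR without the low-count filter. List medians changed sign in the fits without 1 library for desaturases (-0.015 to 0.14), users of very long chains (-0.17 to 0.021), peroxisomal genes (-0.14 to 0.082) and regulators (-0.058 to 0.048). The effect of depth was not tested; Elovl7, with the lowest counts (from 275), had the widest SE of the members (0.276).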
